A study of Mus musculus with 18 samples.

Results

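The mitochondrial ribosomal protein genes are the nuclear genes named Mrpl, mostly for proteins of its large subunit, and Mrps, mostly for proteins of its small subunit. The name does not always give the place: Mrps30 and Mrps18a are found in the large subunit. Every protein-coding row of the deposited count table whose symbol is Mrpl or Mrps followed by a number was taken, which gave 77 of 37310 genes, 47 with Mrpl names and 30 with Mrps names. Expression did not enter the choice. RNA sequencing measured them in cortical neurons cultured from mice, in 4 groups with 3 libraries each: Fmr1 knockout (KO) neurons given JQ1, wild type (WT) neurons given JQ1, KO neurons given the vehicle DMSO, and WT neurons given DMSO. Treatment began at day 7 of culture and lasted 24 h in all groups. JQ1 blocks the bromodomains with which BET proteins bind acetylated chromatin, and Fmr1 encodes FMRP, the RNA-binding protein missing in fragile X syndrome. The mice are given as Fmr1-/- with no further name of the allele, and the strain, sex and age of the animals and the JQ1 dose are not stated. Nor do the labels say whether the numbered libraries of a group came from separate cultures or animals, so p-values reflect only how these libraries vary, which may be technical. THZ1, an inhibitor of CDK7, was given to another 6 samples that are not analysed here.

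Mitochondria carry their own ribosome, which translates the few membrane subunits of the respiratory chain that mitochondrial DNA encodes. Its ribosomal RNAs come from mitochondrial DNA, but all of its proteins are encoded in the nucleus, made on cytosolic ribosomes and imported. Some are counterparts of bacterial ribosomal proteins and others exist in mitochondrial ribosomes alone. Neurons depend on oxidative phosphorylation for firing and synaptic transmission, and mutations in several of these genes cause encephalopathies in humans.

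The libraries held 21643592 to 134110850 reads assigned to genes. Of the 77 genes, 75 had enough reads to be tested, 46 with Mrpl and 29 with Mrps names, among 15433 genes tested in all. Mrpl53 had 3 reads over the 12 libraries and Mrps36-ps1 had 6, with no more than 1 read in any library. In GENCODE M21, 88.0% of the exonic bases of Mrpl53 are shared with Gm42688 on the same strand. Rows of the pseudogenes Mrpl48-ps (1610 reads in all), Mrps36-ps2 (13 reads) and Mrpl23-ps1 (9 reads) are not members, and reads of Mrpl48, Mrps36 and Mrpl23 shared with these copies are uncertain. Fmr1 itself was measured at 24.4 ± 4.40 CPM in KO neurons in DMSO and at 120.9 ± 2.89 CPM in WT neurons in DMSO (mean ± SD, n = 3 each), and at 29.4 ± 4.59 CPM in KO and 144.5 ± 9.19 CPM in WT neurons in JQ1. CPM is the count of a gene scaled to a common library total, with a TMM correction for library composition. Over the 12 libraries, markers of neurons summed to 7166 to 8604 CPM, those of astrocytes to 210.3 to 619.6 CPM and those of microglia to 6.01 to 9.76 CPM. WT in JQ1 replicate 3 was the shallowest library and WT in JQ1 the group whose Mrp genes varied most, with a median coefficient of variation of 6.77% against 4.19 to 4.26% in the other groups.

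Each Mrp gene was a moderately expressed gene, and together they took a nearly fixed share of the transcriptome. Their summed reads made up 0.191 to 0.220% of gene reads over the 12 libraries. In CPM, the highest mean over all libraries belonged to Mrps26 (58.1), which encodes a small subunit protein found in mitochondria alone, Mrpl50 (57.4) and Mrpl30 (52.2), the counterpart of bacterial L30. The lowest tested genes were Mrps34 (7.33 CPM), Mrps28 (8.36 CPM) and Mrps18b (8.68 CPM). Of the exonic bases of Mrps34, 77.8% overlap exons of Mapk8ip3 or Nme3 in GENCODE M21, and how such reads were assigned is not stated. Besides Mrps34, over 20% overlapped another protein-coding gene in Mrps25 (69.8%), Mrpl19 (36.0%), Mrpl43 (33.4%), Mrpl24 (26.3%) and Mrpl47 (24.2%). Divided by the length of the principal transcript, which 74 of the 75 tested genes have in GENCODE, the level had a median of 16.7 CPM per kb and quartiles of 9.29 and 25.9. The range ran over 13.7-fold, with Mrpl47 (4.94 CPM per kb) at its lower end and Mrpl20 (67.7 CPM per kb) at its upper end. The median level was 20.4 CPM per kb for Mrpl and 14.4 for Mrps names. This scale assumes that the principal transcript is the one made in these neurons.

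**Figure D1:**
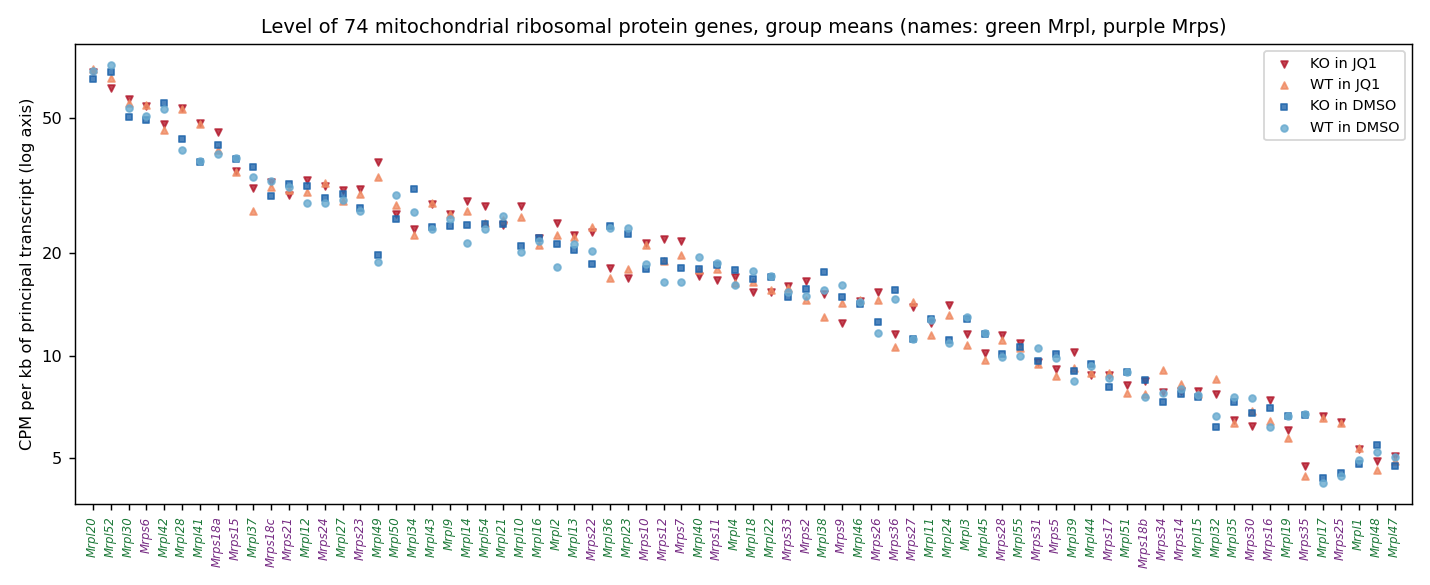
Level of the 74 Mrp genes with a principal transcript, in CPM per kb on a log axis, with 1 symbol for the mean of each group of 3 libraries. Genes run in order of their mean over all 12 libraries, Mrpl20 (67.7) at the left and Mrpl47 (4.94) at the right; the symbols of a gene lie close together beside the spread across genes.

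Summed over the tested genes, Mrp transcripts stood at 2144 ± 31.0 CPM in KO neurons and 2087 ± 129 CPM in WT neurons in JQ1, and at 2019 ± 39.6 CPM in KO neurons and 2012 ± 41.8 CPM in WT neurons in DMSO. The libraries of KO and WT overlapped under both treatments. The 3 KO libraries in JQ1 (2112 to 2174 CPM) lay above the 3 KO libraries in DMSO (1981 to 2060 CPM), while in WT the JQ1 libraries (1972 to 2226 CPM) overlapped those in DMSO (1965 to 2045 CPM). The ratio of summed Mrpl to summed Mrps levels stayed between 1.75 and 1.82 in all 12 libraries. For comparison, the 76 cytosolic ribosomal protein genes, which code for the ribosome that makes these proteins, summed to 16990 ± 453 CPM in KO and 17070 ± 836 CPM in WT neurons in JQ1, and to 14920 ± 475 CPM in KO and 14350 ± 229 CPM in WT neurons in DMSO. In these bulk samples fewer cells of a type and less RNA per cell cannot be told apart.

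**Figure D2:**
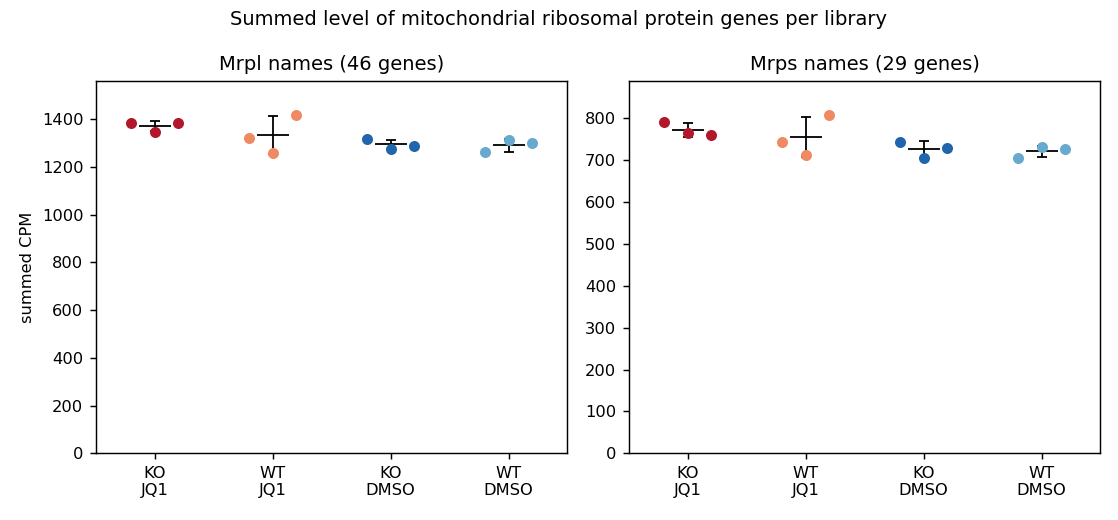
Summed CPM of the 46 tested Mrpl genes (left) and the 29 tested Mrps genes (right), 1 point a library, with the group mean and SD. All points of Mrpl lie between 1259 and 1418 CPM and those of Mrps between 703.9 and 807.7 CPM.

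With this scaling, log2 changes are set against the middle of all genes. Scaling to the ERCC spike-in RNA in the same libraries instead gave another median log2 change of all tested genes. For KO over WT this median was -0.82 in DMSO and -0.12 in JQ1. For JQ1 over DMSO it was 0.07 in KO and -0.63 in WT. How much spike-in each sample received is not stated. Spike-in reads varied against gene reads within groups too. KO libraries in DMSO held 187296, 107995 and 129889 spike-in reads beside 53564043, 64000804 and 53174615 gene reads. WT libraries in DMSO held 39278, 45982 and 60614 beside 33118140, 36859618 and 35006469.

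How these transcripts differ without FMRP is asked by KO against WT neurons in DMSO. Relative to the middle of all genes, 0 of the 75 Mrp genes were higher and 1 was lower in KO at an adjusted p under 0.05 in edgeR's quasi-likelihood test, against 7.21% and 7.76% of all genes tested (15.0% in all). Scaled to the spike-ins, 0 were higher and 70 lower in KO, with 77.7% of all genes called, a median of -0.80 for the Mrp genes and -0.82 for all genes. The gene called without spike-ins was Mrpl50, which encodes a large subunit protein without a bacterial counterpart. It was counted at 53.2, 52.9 and 54.1 CPM in KO libraries and at 59.8, 65.6 and 62.9 CPM in WT libraries, without overlap. Its log2 change was -0.23 (SE 0.0518, 95% interval -0.34 to -0.12, edgeR adjusted p = 0.0105). The call was lost without KO replicate 1 (edgeR adjusted p = 0.0603), KO replicate 2 (0.0537) or WT replicate 2 (0.0550). In these smaller fits fewer of all genes were called too, 5.77%, 8.22% and 7.19%.

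The other genes lay close to the middle of all genes. The median log2 change of the 75 was 0.01 and their median absolute change 0.067, beside -0.01 and 0.132 over all genes tested. With TMM scaling, every one of the 75 log2 changes had a 95% interval inside -0.5 to 0.5, which held for 10812 of the 15433 genes. Without adjustment, 10 of the 75 had a p under 0.05, against 31.6% of all genes. The libraries of KO and WT did not overlap for 18 of the 75, 10 higher and 8 lower in KO, against 37.6% of all genes (17.0% higher, 20.7% lower). The largest positive values were those of Mrpl34 (0.22, 95% interval 0.04 to 0.41) and Mrpl2 (0.22, 95% interval 0.06 to 0.39), counterparts of bacterial L34 and L2, at adjusted p of 0.0981 and 0.0677 in edgeR. In the authors' deposited table of KO against WT, 3 of the 75 genes with an adjusted p were under 0.05, against 23.8% of all genes with one: Mrpl50 (-0.20) lower, Mrpl34 (0.22) and Mrpl2 (0.21) higher in KO. Its headers do not name the treatment or libraries used, and it comes from the same series, so it is not independent. Sums of marker genes differed with genotype. The astrocyte markers, all 6 detected, summed to 348.8 to 483.4 CPM in KO and 510.5 to 619.6 CPM in WT libraries in DMSO. The 6 neuron markers summed to 7983 to 8604 CPM in KO and 7537 to 7851 CPM in WT libraries. Among the neuron markers Tubb3 averaged 2876 CPM in KO and 2449 CPM in WT, and Rbfox3, Syt1 and Stmn2 were also higher in KO. Map2 (1628 CPM in KO, 1665 CPM in WT) and Snap25 (372.2 and 380 CPM) averaged lower in KO. The part of marker genes in the values above was not tested.

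The same comparison in JQ1 asks about genotype when BET proteins are blocked. Here 2 of the 75 genes were higher in KO and 0 lower, against 4.85% and 4.13% of all genes (8.97% in all). Mrpl37, a large subunit protein found in mitochondria alone, stood at 48.0, 46.1 and 45.6 CPM in KO libraries and at 40.7, 39.4 and 39.9 CPM in WT libraries, with a log2 change of 0.22 (SE 0.0438, edgeR adjusted p = 0.00879). Mrps2, the counterpart of bacterial S2, stood at 33.7, 34.2 and 35.7 CPM in KO libraries and at 29.8, 30.8 and 30.1 CPM in WT libraries, with a log2 change of 0.19 (SE 0.0474, edgeR adjusted p = 0.0246). In neither gene did the genotypes overlap. Scaled to the spike-ins, 0 of the 75 were called, and Mrpl37 (0.10) and Mrps2 (0.08) lost their calls. Mrps2 also lost its call without KO in JQ1 replicate 2 (adjusted p = 0.0569), WT in JQ1 replicate 1 (0.117) or WT in JQ1 replicate 2 (0.0602), and in a fit of the JQ1 libraries alone (0.0816). Without WT in JQ1 replicate 3, 6 genes were called higher instead of 2. The median log2 change of the 75 was 0.04 against -0.00 over all genes, and 9 of them, 8 higher and 1 lower, had no overlap between genotypes, against 27.0% of all genes (14.1% higher, 12.8% lower). Without adjustment 10 of the 75 had a p under 0.05, against 26.3% of all genes. In JQ1 some marker sums did not overlap between genotypes. The 6 progenitor markers summed to 179.3 to 238.0 CPM in KO and 259.8 to 320.2 CPM in WT libraries. Those of astrocytes summed to 210.3 to 364.8 CPM in KO and 365.2 to 483.6 CPM in WT libraries, nearly touching. Those of neurons summed to 7479 to 7929 CPM in KO and 7166 to 7417 CPM in WT libraries, and those of microglia to 6.95 to 8.13 and 6.01 to 6.73 CPM. Some markers went against these sums. The neuron marker Map2 averaged 1710 CPM in KO and 1816 CPM in WT. The astrocyte markers Gfap (11.2 CPM in KO, 8.10 CPM in WT) and Aqp4 (4.13 and 3.90 CPM) were higher in KO. The microglia markers Cx3cr1 (0.194 and 0.270 CPM), Itgam and P2ry12 were lower in KO, at very low levels. Sums of oligodendrocyte, fibroblast and endothelial markers overlapped between genotypes. The part of marker genes in these values was not tested.

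In JQ1 about equal numbers of Mrp genes were higher and lower, by small amounts. Relative to the middle of all genes, 21 of the 75 were higher and 16 lower in JQ1 than in DMSO in KO neurons, 49.3% in all, against 57.1% of all genes tested (27.7% higher, 29.4% lower). In WT neurons 18 were higher and 19 lower, again 49.3%, against 55.1% of all genes (25.9% higher, 29.3% lower). Scaled to the spike-ins, the counts became 1 higher and 0 lower in KO and 0 higher and 25 lower in WT. With a stricter low-count filter (minimum count 50), which all 75 passed, the KO split became 17 higher and 20 lower. The median log2 change was 0.06 in KO and 0.02 in WT. The median absolute change of the Mrp genes was 0.149 in KO and 0.159 in WT, beside 0.264 in KO and 0.259 in WT over all genes. None of the 75 differed by more than 2-fold in either genotype, while 11.3% of all genes did in KO and 11.6% in WT. Treatments did not overlap for 51 of the 75 in KO, 30 higher and 21 lower, against 60.7% of all genes (29.7% higher, 31.1% lower), and for 37 in WT, 20 higher and 17 lower, against 62.6% (30.3% higher, 32.3% lower).

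**Figure D3:**
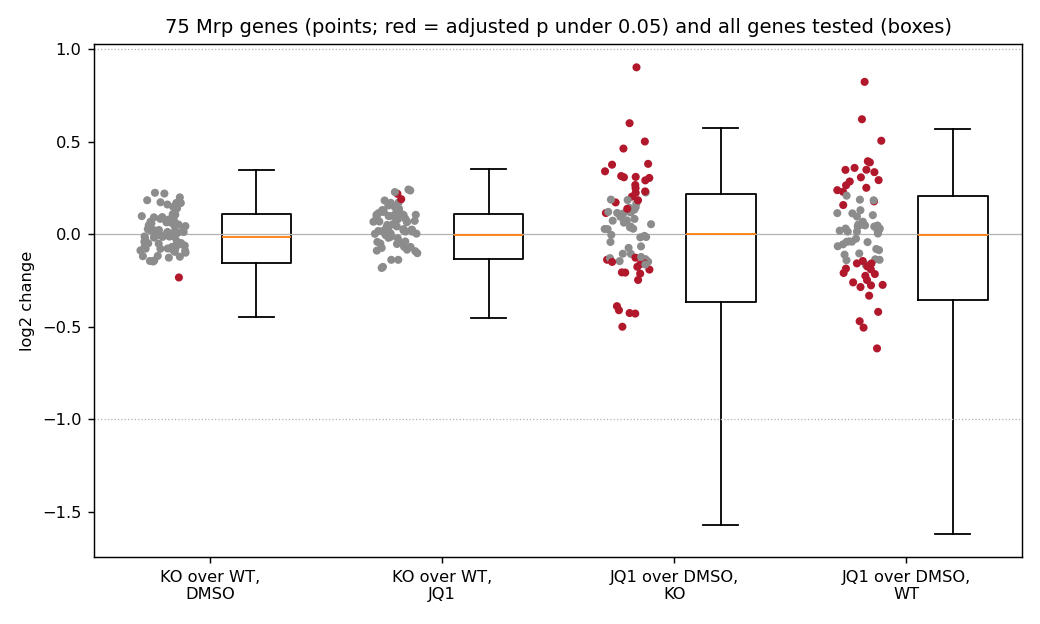
Log2 change of the 75 tested Mrp genes (points, red where the adjusted p is under 0.05) beside all 15433 genes tested (boxes from the 25th to the 75th percentile with the median, whiskers from the 5th to the 95th percentile) in 4 comparisons, relative to the middle of all genes. In the genotype comparisons 1 and 2 points are red; in each JQ1 comparison 37 are, on both sides of 0 and within 2-fold (dotted lines).

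Mrpl49, a large subunit protein without a bacterial counterpart, rose most. It was counted at 64.8, 63.8 and 67.2 CPM in KO libraries in JQ1, against 35.8, 35.5 and 33.3 CPM in KO libraries in DMSO. In WT libraries the values were 59.5, 57.3 and 60.2 CPM in JQ1 and 32.6, 33.7 and 33.4 CPM in DMSO. Every JQ1 library lay above every DMSO library of its genotype, a log2 change of 0.90 (SE 0.0449, edgeR adjusted p = 3.53e-09) in KO and 0.82 (SE 0.0460, edgeR adjusted p = 9.78e-09) in WT. With spike-in scaling it was the 1 Mrp gene called in KO, and it was not called in WT.

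Mrpl17 came next, relative to the middle of all genes. Its bacterial counterpart L17 sits near the mouth of the tunnel through which the new peptide leaves. Its level was 50.6, 48.8 and 46.0 CPM in KO libraries in JQ1, against 32.9, 33.3 and 29.7 CPM in DMSO. In WT libraries it was 47.3, 42.7 and 54.1 CPM in JQ1, against 30.0, 31.3 and 31.6 CPM in DMSO. The groups did not overlap, and the log2 changes were 0.60 in KO (SE 0.0748, edgeR adjusted p = 1.14e-05) and 0.62 in WT (SE 0.0765, edgeR adjusted p = 1.10e-05).

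Mrps25, a small subunit protein found in mitochondria alone, had a log2 change of 0.50 in KO and 0.51 in WT, with 38.8 ± 0.974 CPM in JQ1 and 27.4 ± 1.75 CPM in DMSO in KO neurons (SD, n = 3 each). In GENCODE M21, 69.8% of its exonic bases overlap Nr2c2 on the opposite strand, so without strand information its reads are uncertain. Mrpl33, the counterpart of bacterial L33, rose by 0.46 in KO, where it averaged 37.7 ± 1.98 CPM in JQ1 and 27.3 ± 0.647 CPM in DMSO, and by 0.40 in WT. Among the next in order were Mrpl10 (0.38 in KO, 0.34 in WT), at the base of the stalk that recruits translation factors, Mrpl41 (0.38, 0.35), Mrpl28 (0.31, 0.39) and Mrps27 (0.30, 0.36), a pentatricopeptide repeat protein of the small subunit. All 6 had no overlap between JQ1 and DMSO libraries in either genotype.

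Mrps35, another small subunit protein of mitochondria alone, fell most. KO libraries held 18.95, 19.7 and 20.7 CPM in JQ1, against 28.8, 27.0 and 28.1 CPM in DMSO. WT libraries held 18.7, 17.7 and 18.95 CPM in JQ1, against 27.2, 27.7 and 29.7 CPM in DMSO. The log2 change was -0.50 in KO (SE 0.0575, edgeR adjusted p = 5.74e-06) and -0.62 in WT (SE 0.0587, edgeR adjusted p = 1.09e-06), with every JQ1 library below every DMSO library.

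Mrpl36, the counterpart of the small zinc-binding bacterial protein L36, stood at 16.6, 16.4 and 17.1 CPM in KO libraries in JQ1 and at 22.9, 22.5 and 20.9 CPM in DMSO. In WT libraries it stood at 16.3, 14.4 and 16.1 CPM in JQ1 and at 22.3, 21.7 and 21.8 CPM in DMSO. These groups did not overlap, and the log2 changes were -0.41 in KO (SE 0.0622) and -0.50 in WT (SE 0.0637), with edgeR adjusted p of 6.92e-05 and 1.43e-05.

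Mrpl23, whose bacterial counterpart L23 lies at the tunnel exit where targeting factors bind, stood at 11.6, 11.9 and 11.7 CPM in JQ1 and at 16.5, 14.6 and 16.2 CPM in DMSO in KO libraries. In WT libraries it stood at 12.8, 11.5 and 12.9 CPM in JQ1 and at 16.4, 16.5 and 16.5 CPM in DMSO. Its log2 change was -0.42 in both genotypes, without overlap. Mrps36, which was later assigned to the 2-oxoglutarate dehydrogenase complex rather than to the ribosome, had -0.43 in KO and -0.47 in WT at 7.33 to 8.20 CPM in JQ1 and 9.20 to 11.5 CPM in DMSO over both genotypes. Mrpl37 had -0.21 in KO and -0.33 in WT, Mrpl38 -0.21 and -0.28, Mrpl34 -0.39 and -0.26, and Mrps9, the counterpart of bacterial S9, -0.25 and -0.19, all called, although the Mrpl34 libraries of WT overlapped between JQ1 and DMSO.

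**Figure D4:**
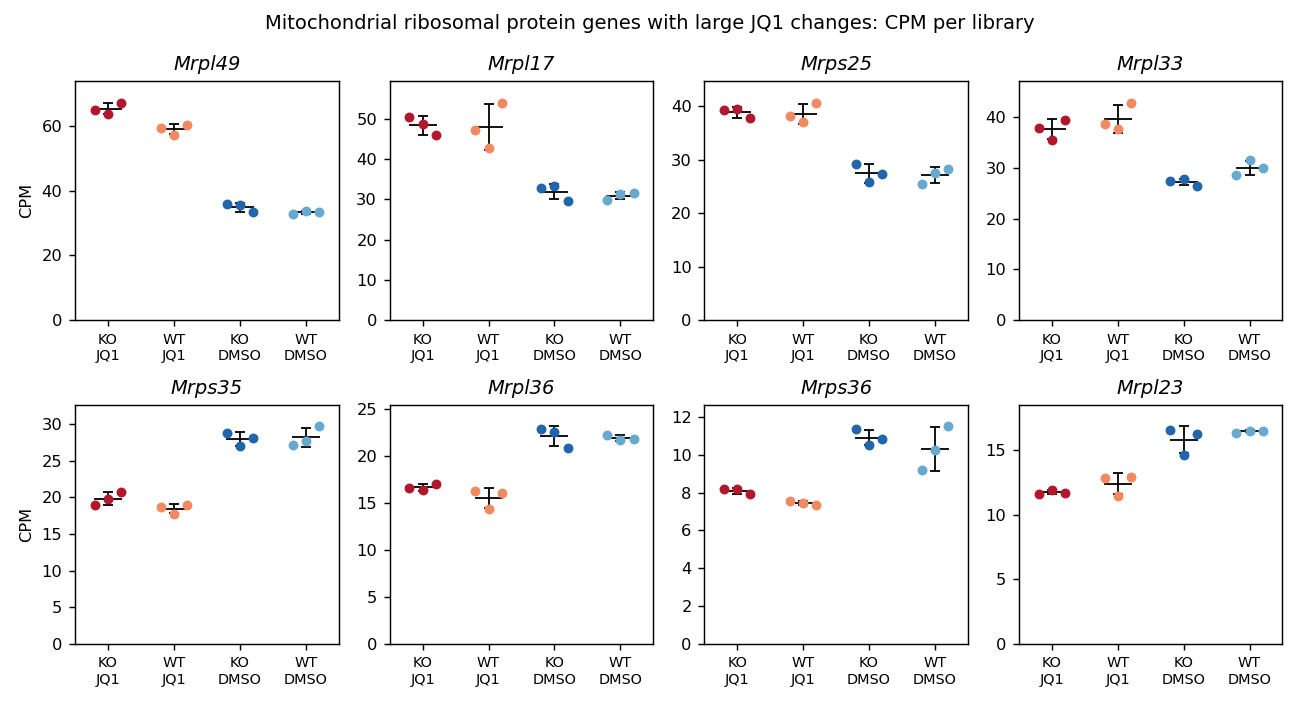
CPM in each library (points) with the group mean and SD for 4 genes that were higher (top) and 4 that were lower (bottom) in JQ1 in both genotypes, relative to the middle of all genes. In Mrpl49 the 6 JQ1 libraries lie between 57.3 and 67.2 CPM and the 6 DMSO libraries between 32.6 and 35.8 CPM.

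The promoters of 2 genes that rose and 2 that fell relative to the middle of all genes are shown as examples. These picked windows cannot show whether sequence goes with direction. Each window holds 250 bases before and 50 after the RefSeq start in GRCm38.p6, 5′ to 3′ along the gene. Capitals mark matches, on either strand, to an NRF1 motif (NRF1 type), CCGGAAG (ETS type, bound by GABP) or AAGATGGC (YY1 type). The NRF1 motif searched allows any base at 1 position. NRF1, GABP and YY1 are factors with known binding near genes of mitochondrial proteins. Mrpl49 lies at chr19:6057706-6058005 on the minus strand, Mrpl17 at chr7:105811038-105811337 on the minus strand, Mrpl36 at chr13:73330759-73331058 on the plus strand and Mrpl23 at chr7:142532782-142533081 on the plus strand.
Mrpl49: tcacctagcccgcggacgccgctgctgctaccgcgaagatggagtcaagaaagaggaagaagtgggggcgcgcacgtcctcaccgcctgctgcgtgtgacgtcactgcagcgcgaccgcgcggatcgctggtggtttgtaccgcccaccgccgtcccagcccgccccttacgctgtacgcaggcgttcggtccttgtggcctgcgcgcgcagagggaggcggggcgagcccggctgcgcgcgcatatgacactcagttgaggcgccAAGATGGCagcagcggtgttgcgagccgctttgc
Mrpl17: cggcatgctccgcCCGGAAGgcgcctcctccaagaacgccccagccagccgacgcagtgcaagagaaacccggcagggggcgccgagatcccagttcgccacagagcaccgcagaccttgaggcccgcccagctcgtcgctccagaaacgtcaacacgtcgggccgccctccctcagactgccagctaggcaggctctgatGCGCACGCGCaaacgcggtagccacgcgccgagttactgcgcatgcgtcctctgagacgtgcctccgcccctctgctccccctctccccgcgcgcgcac
Mrpl36: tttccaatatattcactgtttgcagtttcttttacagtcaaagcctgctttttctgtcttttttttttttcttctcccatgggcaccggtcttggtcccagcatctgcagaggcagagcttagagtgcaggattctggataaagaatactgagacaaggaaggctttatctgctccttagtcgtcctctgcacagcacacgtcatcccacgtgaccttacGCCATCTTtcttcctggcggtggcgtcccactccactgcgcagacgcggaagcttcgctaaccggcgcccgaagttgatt
Mrpl23: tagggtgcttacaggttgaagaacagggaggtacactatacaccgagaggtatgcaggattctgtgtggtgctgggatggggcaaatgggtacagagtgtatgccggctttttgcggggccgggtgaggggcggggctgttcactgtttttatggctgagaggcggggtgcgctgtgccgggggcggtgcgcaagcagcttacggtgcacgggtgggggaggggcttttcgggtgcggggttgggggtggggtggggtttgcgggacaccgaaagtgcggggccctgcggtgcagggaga
The Mrpl49 window is 68.3% G and C and holds 1 YY1-type match just after the start. The Mrpl17 window is 69.7% G and C and holds 1 ETS-type and 1 NRF1-type match. The Mrpl36 window is 49.7% G and C with 1 YY1-type match, and that of Mrpl23 is 63.3% G and C with 0 matches to these 3 motifs.

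Across the 67 Mrp genes with a RefSeq promoter (73 windows), the NRF1-type motif was found in 16.4% of windows, the ETS-type motif in 32.9% and the YY1-type motif in 16.4%. Of the 15433 genes tested, 10360 gene symbols had a window. Among their 13307 windows the shares were 8.99%, 15.2% and 3.80%, and among all 32851 windows of the same length 4.60%, 8.86% and 2.75%. The CCAAT motif was in 41.1% of Mrp windows and 37.4% of those 13307, CACGTG in 9.59% and 9.77%, and TATAAA in 6.85% and 7.35%. Of genes higher in JQ1 in both genotypes, 36.8% of 19 windows held the ETS-type motif, 15.8% the NRF1-type and 21.1% the YY1-type motif. Of genes lower in both, 25.0%, 12.5% and 25.0% of 16 windows did. A match describes letters in the window, not binding.

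The JQ1 responses were set side by side between the genotypes. Of the 75 genes, 17 were higher and 16 lower in JQ1 in both genotypes, 33 in all, against 48.5% of all genes tested (22.8% higher, 25.7% lower). The number called in opposite directions was 0, and 34 were called in neither genotype. Mrpl30, Mrps6, Mrps12 and Mrps17 were called higher in KO alone, whereas Mrpl14 was called higher, and Mrpl11, Mrps15 and Mrps31 lower, in WT alone. Being called in 1 genotype is not a difference between them. Across the 75 genes the log2 changes in KO and WT had a Pearson r of 0.965 and the same sign in 68. These are points across genes from 2 separate sets of libraries, which share depth and scaling within each set, and over all genes r was 0.937.

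The difference itself, the JQ1 response in KO minus that in WT, passed the adjusted threshold for 0 of 75 Mrp genes and 0 of all 15433 genes in edgeR, and 0 of 75 and 0 of 15431 in DESeq2. Without adjustment 0 of the 75 and 355 of all genes (2.30%) had a p under 0.05 in edgeR. For Mrpl49 the difference was 0.08 (95% interval -0.06 to 0.22) and for Mrps35 0.12 (95% interval -0.06 to 0.29). For Mrpl37, higher in KO than in WT in JQ1, it was 0.13 (95% interval -0.01 to 0.26). With TMM scaling every 95% interval of the 75 lay within 0.5 of 0 on the log2 scale. With spike-in scaling the differences ran between 0.58 and 0.90 (median 0.74), none of them called.

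**Figure D5:**
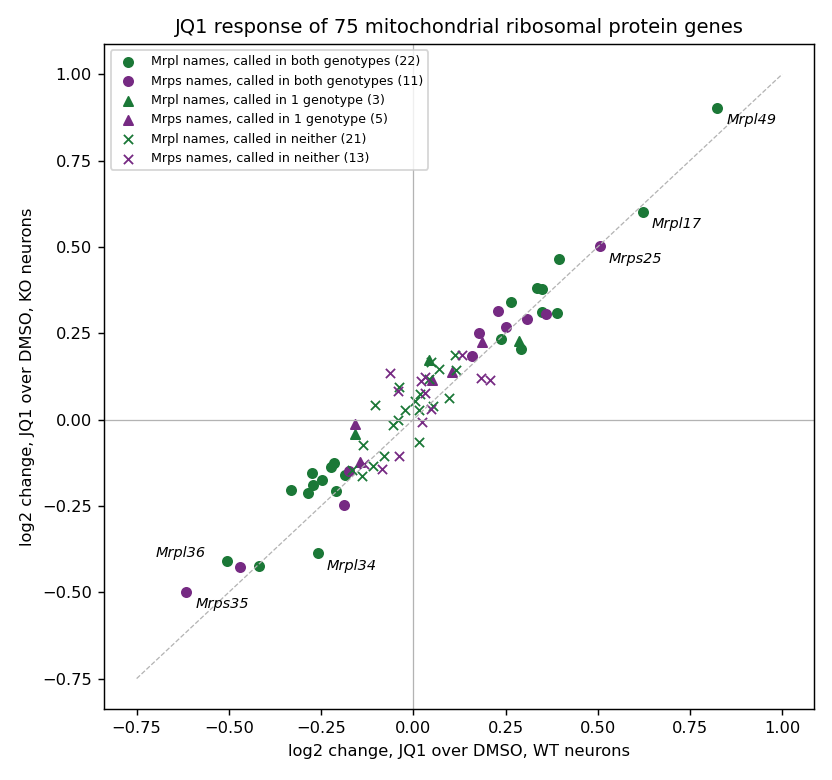
Log2 change in JQ1 over DMSO in KO neurons (vertical) against that in WT neurons (horizontal) for the 75 tested Mrp genes, relative to the middle of all genes. Circles are the 33 genes called in both genotypes, triangles the 8 called in 1 and crosses the 34 called in neither; the dashed line marks equal responses.

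The members called in both genotypes include parts of each subunit. Beside the genes above, Mrpl2, Mrpl24, Mrpl32, Mrpl43, Mrps7, Mrps10, Mrps22, Mrps23 and Mrps26 were higher, and Mrpl3, Mrpl19, Mrpl35, Mrpl42, Mrpl45, Mrpl48, Mrpl51 and Mrps5 lower, in JQ1 in both. Reads of Mrpl19, Mrpl24 and Mrpl43 are uncertain where their exons overlap other genes. Of all genes tested, 27.7% were higher and 29.4% lower in KO, and 25.9% higher and 29.3% lower in WT, as stated above. Of the 46 Mrpl genes 11 were higher and 12 lower in KO, and 11 higher and 13 lower in WT. Of the 29 Mrps genes 10 were higher and 4 lower in KO, and 7 higher and 6 lower in WT. The median log2 change was 0.03 for Mrpl and 0.12 for Mrps genes in KO, and -0.01 and 0.03 in WT, relative to the middle of all genes. Grouped by origin, of 47 genes with a bacterial counterpart 13 were higher and 8 lower in KO, and 10 higher and 10 lower in WT. Of 27 found in mitochondria alone 8 were higher and 7 lower in KO, and 8 higher and 8 lower in WT. Each of these groups held calls on both sides, although scaled to the spike-ins only Mrpl49 was higher in KO and no gene was higher in WT. Marker genes moved with the treatment too. Of the 6 astrocyte markers 4 were lower in JQ1 in KO (median log2 change -0.80) and 5 in WT (-0.83), of 5 microglia markers tested 3 in each genotype (-1.42 in KO, -1.54 in WT), and of 5 fibroblast markers 4 in KO (-1.17) and 2 in WT (-0.91). Of the 6 neuron markers 2 were higher and 3 lower in KO, and 1 higher and 3 lower in WT. Among them Tubb3 averaged 2383 CPM in JQ1 and 2876 CPM in DMSO in KO, whereas Snap25 averaged 419.3 CPM in JQ1 and 372.2 CPM in DMSO. The 6 oligodendrocyte markers summed to 25.3 to 29.6 CPM in JQ1 and 39.7 to 46.4 CPM in DMSO over both genotypes, and the part of these markers in the values above was not tested.

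The genes of the cytosolic ribosome were mostly higher in JQ1 under the same scaling. Of 76, 46 were higher and 2 lower in KO neurons (63.2% called, median log2 change 0.16), and 60 higher and 0 lower in WT neurons (78.9%, median 0.23), against 57.1% of all genes called in KO and 55.1% in WT, although scaled to the spike-ins 0 were called and the median was 0.23 in KO and -0.41 in WT. The Mrp medians of 0.06 in KO and 0.02 in WT stand below these, and no test of the lists against each other was made. Between genotypes in DMSO 12 cytosolic genes were higher and 1 lower in KO, and with spike-in scaling 0 higher and 63 lower. For the Mrp genes these counts were 0 higher and 1 lower, and with spike-in scaling 0 higher and 70 lower.

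Proteins of the mitochondrial ribosome that carry other names moved both ways as well. Here and in the lists that follow, changes are set against the middle of all genes; the shares called over all genes are again 57.1% in KO and 55.1% in WT. With spike-in scaling 1 of the listed genes (Nars2) was called higher and 0 lower in KO, so the other KO calls below are lost, and 0 were called higher in WT. The WT calls on the lower side were then 1 of 7 ribosomal proteins under other names, 6 of 26 assembly genes, 4 of 17 synthetases, 4 of 11 translation factors, 1 of 11 RNA genes and 3 of 12 regulators. Of 7, Dap3 and Ptcd3 rose and Chchd1 fell in JQ1 in each genotype. Dap3, a GTP-binding protein of the small subunit, averaged 121.2 ± 4.03 CPM in JQ1 and 92.8 ± 2.51 CPM in DMSO in KO neurons (log2 change 0.38), and 121.4 ± 5.58 CPM in JQ1 and 90.8 ± 2.12 CPM in DMSO in WT neurons (0.42). Chchd1 averaged 22.0 ± 1.89 CPM in JQ1 and 31.6 ± 1.15 CPM in DMSO in KO neurons (-0.53), and 24.7 ± 2.47 CPM in JQ1 and 35.9 ± 2.15 CPM in DMSO in WT neurons (-0.56). Ptcd3, a pentatricopeptide repeat protein, had 0.27 in KO and 0.28 in WT.

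Of 26 genes for assembly of the mitochondrial ribosome and modification of its RNA, 9 rose and 7 fell in JQ1 in KO (61.5% called), and 8 rose and 3 fell in WT (42.3%). The lead was 2610024G14Rik (Noa1, a GTPase), at 59.9, 57.2 and 57.2 CPM in JQ1 and 37.7, 34.6 and 36.9 CPM in DMSO in KO libraries, with a log2 change of 0.68 in KO and 0.70 in WT. Rbfa, named for a bacterial maturation factor of the small subunit, had -0.44 in KO and -0.43 in WT, and Mpv17l2 0.39 and 0.50. Between genotypes in DMSO, Mpv17l2 was higher (0.23) and Mterfd1 lower (-0.34) in KO, and with spike-in scaling Mpv17l2 was at -0.59 and not called and Mterfd1 lower (-1.16).

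Among 17 mitochondrial aminoacyl-tRNA synthetases, which load tRNAs for this ribosome, 8 rose and 4 fell in KO (70.6%), and 5 rose and 3 fell in WT (47.1%). Nars2, for asparagine, rose by 0.84 in KO and 0.79 in WT, and Fars2, for phenylalanine, fell by 0.66 in KO and 0.67 in WT on the log2 scale. Between genotypes in DMSO, Vars2 was higher (0.21) and Rars2 lower (-0.28) in KO, and with spike-in scaling Vars2 was at -0.62 and not called and Rars2 lower (-1.08). Of 11 translation factors tested, Mtfmt, which formylates the initiator tRNA, rose (0.63 in KO, 0.51 in WT) and Mtrf1, a release factor, fell (-0.60 in KO, -0.39 in WT).

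Of 11 genes of mitochondrial RNA synthesis and turnover, 4 rose and 0 fell in KO (36.4%), and 3 rose and 0 fell in WT (27.3%). Polrmt, the mitochondrial RNA polymerase, had 0.33 in KO and 0.38 in WT, and Lrpprc, which stabilises mitochondrial mRNAs, 0.16 and 0.19. Pnpt1, a mitochondrial exoribonuclease, was lower in KO than in WT in DMSO (-0.25). Both mitochondrial ribosomal RNAs and all 12 mitochondrially encoded mRNAs tested had no call in any comparison relative to the middle of all genes (with spike-in scaling both rRNAs and all 12 mRNAs were lower in KO than in WT in DMSO), at intervals too wide to show changes of the size seen here: mt-Rnr1 had 0.27 in KO (95% interval -0.09 to 0.64) and 0.22 in WT (95% interval -0.14 to 0.58). KO in DMSO replicate 3 stood apart, with mt-Rnr1 at 537.5 CPM against 318.5 and 332.3 CPM in replicates 1 and 2.

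Of 12 nuclear regulators of genes for mitochondria, 2 rose and 2 fell in KO (33.3%), and 3 rose and 3 fell in WT, 6 of 12. Nrf1 had 0.22 in KO and 0.25 in WT, Yy1 0.17 and 0.21, Myc -0.34 and -0.31, and Gabpb2, a subunit of the ETS factor GABP, -0.59 and -0.43. In WT Gabpb1 rose (0.23) and Gabpa fell (-0.23) too. Pprc1, a coactivator related to PGC-1, was higher in KO than in WT in JQ1 (0.19, edgeR adjusted p = 0.0361), but not called with spike-in scaling (0.07).

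Several Mrp genes start next to another gene that runs the other way. In GENCODE M21, 33 tested Mrp genes have a protein-coding neighbour on the opposite strand whose start lies within 1000 bp, and 31 of these pairs were measured, with Mrpl46 and Mrps11 as each other's neighbour and so counted from both sides. Both genes were called in JQ1 in 9 pairs in KO, 4 in the same and 5 in opposite directions, and in 8 pairs in WT, 3 in the same and 5 in opposite directions. In the 31 pairs 15 members and 17 neighbours were called in KO, and 14 and 15 in WT. Of all genes tested, 57.1% were called in KO and 55.1% in WT. Scaled to the spike-ins, Mrpl49 was the only Mrp gene called in KO. Mrpl49 starts 59 bp from Fau, a cytosolic ribosomal protein gene, which had 0.11 in KO (not called) and 0.23 in WT (called), where Mrpl49 had 0.90 and 0.82. Mrpl37 fell while Cyb5rl, 120 bp away, rose by 0.76 in KO and 0.77 in WT. Over the 31 pairs the log2 changes of neighbours had a Pearson r of -0.08 in KO and -0.07 in WT, and 0.41 for KO over WT in DMSO, as points across genes that share libraries and in part exons. In the 17 pairs without exon overlap r was -0.25 for JQ1 in KO, -0.19 for JQ1 in WT and 0.51 for KO over WT in DMSO.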

How the data were processed

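RNA from cultured cortical neurons was purified with a Qiagen kit, made into TruSeq libraries and sequenced from 1 end (75 bp, NextSeq500), per the labels' protocols. TopHat2 2.1.0, SAMtools 0.1.19, HTSeq 0.6.1, DESeq2, DESeq and the mouse build mm9 are named in the submitters' processing notes; whether counting used strand, and in which mode, is not stated there. The authors deposited raw read counts per gene for 12 libraries, named by genotype, treatment and number. Their deposited table of KO against WT holds a mean normalised signal, a log2 fold change with its error, a Wald score and p-values, per the file headers.

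The counts were tested with edgeR 4.0.16 (R 4.3.3, limma 3.58.1) after leaving 92 spike-in rows out of library sizes: filterByExpr with a minimum count of 10, TMM scaling, 1 quasi-likelihood fit of the 4 groups of 3, and Benjamini-Hochberg adjustment over all 15433 genes, with a call at an adjusted p under 0.05. The fit had 8 residual degrees of freedom and a biological coefficient of variation of 6.69%. DESeq2 1.42.0, other scalings and filters, blocks and left-out libraries were tried as alternatives. Gene lengths, overlaps and neighbours came from GENCODE M21 (GRCm38) by gene ID, promoters from RefSeq (GRCm38.p6), for 67 of the 77 genes; no coordinates were converted. The members and lists were chosen with earlier results of these data known. Named members were, by rule, the 6 rising and 6 falling called genes of largest change in each JQ1 comparison, all called between genotypes, the 3 highest and 3 lowest in mean CPM, and those not tested; lists gave up to 3 called genes of smallest adjusted p. Other names were chosen after their values were seen.

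KO libraries with the same number in JQ1 and DMSO deviated together (r 0.212 to 0.287 over genes). This hints that numbers pair these samples, which the labels do not state, and the main fit did not use it. The other comparisons did not meet an r above 0.1 in every pair, with 0.0941 to 0.158 for JQ1 against DMSO in WT. Within groups, libraries varied beyond counting noise (chi-square per degree of freedom 4.77 to 40.9). The largest values, 40.1 and 40.9, set KO in DMSO replicate 3 against replicates 1 and 2, which gave 7.82 against each other.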

Additional observations from a re-analysis of the deposited data

How the results depend on the processing

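Spike-in scaling changed most. With it, KO against WT in DMSO gave 0 higher and 70 lower (median -0.80), KO against WT in JQ1 0 higher and 0 lower (-0.0653), JQ1 against DMSO 1 higher and 0 lower in KO (0.13) and 0 higher and 25 lower in WT (-0.62); the KO response minus the WT response had a median of 0.74. In WT it turned 17 of the 18 higher calls below 0, among them Mrpl17 (-0.0204), Mrps25 (-0.12), Mrpl33 (-0.24), Mrpl28 (-0.26) and Mrps27 (-0.28). The cause was not tested. Otherwise, for KO against WT in DMSO, 1 gene was higher with no filter, with a minimum count of 50, in DESeq2 and without both KO replicate 3 libraries, and 3 when only those groups were fitted. In JQ1, 5 were higher in DESeq2, 1 when only those groups were fitted and 4 without both KO replicate 3 libraries.

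Leaving out each library in turn gave 0 to 1 higher, 0 to 1 lower and a median of -0.01 to 0.04 for KO against WT in DMSO, and 1 to 6 higher, 0 lower and 0.01 to 0.08 in JQ1. For JQ1 against DMSO it gave 17 to 22 higher, 10 to 17 lower and 0.05 to 0.07 in KO, and 15 to 20 higher, 12 to 22 lower and -0.0238 to 0.0663 in WT. The response difference kept 0 calls, with medians of -0.00425 to 0.0825. KO had 10 lower without KO in JQ1 replicate 2, WT 12 lower without WT in JQ1 replicate 1 or 2, and KO against WT in JQ1 6 higher without WT in JQ1 replicate 3. Of the 37 JQ1 calls in each genotype, 26 held in all 12 omissions.

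With the replicate number as a block, JQ1 against DMSO gave 20 higher and 14 lower in KO and 18 higher and 19 lower in WT, and with each genotype and number as a block 24 higher and 17 lower in KO and 19 higher and 19 lower in WT. In WT each library also correlated best with its own number, a hint from the data only. The block moved no count of these calls by over 1.5 times. At this depth with 3 libraries a group, the smallest called JQ1 changes were 0.12 and -0.13 in KO and 0.16 and -0.14 in WT on the log2 scale.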
